A study of Mus musculus with 4 samples.

Results

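In Treg cells with intact Junb, 2641 of 31093 IRF4 ChIP-seq peaks (8.49%) lay at promoters, stood apart from JunB and BATF, and had an IRF4 peak at the same position in Junb-deficient Treg cells. These kept IRF4-alone promoter peaks were selected on measured values. A peak of the Junb-sufficient IRF4 list was a member if it overlapped no JunB peak and no BATF peak of the same cells, overlapped by at least 1 bp an IRF4 peak called in Junb-deficient cells, and had its centre within 1 kb of a transcription start site (TSS) of a protein-coding transcript. The absence of JunB and BATF, the nearness to a TSS and the presence without Junb are therefore how the members were chosen and not results about them.

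ChIP-seq measures where a protein sits on DNA by sequencing the DNA that an antibody against it brings down. The study asked whether JunB, a member of the AP-1 family, is needed for IRF4 to bind DNA in regulatory T (Treg) cells, the CD4+ T cells that hold back immune responses. CD4+CD25+ Treg cells of C57BL/6 mice were activated in culture with anti-CD3 and anti-CD28 antibodies and IL-2 for 60 h in all 4 conditions. JunB, BATF and IRF4 were profiled in Junb-sufficient cells and IRF4 alone in Junb-deficient cells, with 1 library for each. The labels give the genotypes as Foxp3cre JUNB+/+ and Foxp3cre JUNBFl/Fl, whereas the study's text describes the Treg comparison with Junb fl/fl and Cd4Cre Junb fl/fl mice. Under Foxp3cre the deletion starts in Foxp3-expressing cells, and under Cd4Cre in all T cells that pass through a CD4+ stage, so the model differs between these accounts and which one applies was not settled here. The labels give no age or number of mice for a library. The antibody field of the labels exchanges BATF and IRF4 in the Junb-sufficient samples relative to the sample titles. Titles were used, and with the lists exchanged the same rule finds 27 peaks. The library titled IRF4 had 12.76% of its tags in 31093 peaks and the Junb-deficient IRF4 library 11.15% in 29033, against 5.03% in 13570 for the library titled BATF.

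The libraries held 21127029 to 27399986 tags, and 29033 IRF4 peaks were called in Junb-deficient cells. JunB peaks were listed at a width of 151 bp and BATF and Junb-sufficient IRF4 peaks at 613 bp. With 1 library per condition there is no test between genotypes, and the intervals below (95%, exact binomial) cover counting error over peaks only. A peak list names binding that passed a threshold, so a missing peak is a signal that was not called, not binding shown to be absent. Lists of peaks hold no expression values with which to check the cell type. All 5 Treg marker genes examined (Foxp3, Il2ra, Ctla4, Ikzf2 and Tnfrsf18) had an IRF4 peak within 10 kb of the gene, as did all 3 T cell markers, both CD8 T cell markers, 2 of 3 myeloid markers (Itgam with 7 peaks and Cd14 with 1), 1 of 2 NK cell markers and none of 3 B cell markers. The marker genes therefore do not single out Treg cells. Among all these marker genes, 1 had a member at its promoter, Klrb1c, which encodes an NK cell receptor.

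IRF4 is a transcription factor of the interferon regulatory factor (IRF) family that is induced by antigen receptor signals and is needed for effector Treg cells. It binds poorly to DNA by itself and is known to act at 3 kinds of composite site. At an AICE it binds beside a BATF and JUN family dimer, at an EICE beside an ETS family factor such as PU.1 or SpiB, and at an interferon-stimulated response element (ISRE) as a dimer of IRF proteins on repeated GAAA. Many promoters, above all those of genes that every cell uses, lie in CpG islands, stretches rich in G, C and the dinucleotide CpG, where ETS factors and the Sp family bind CCGGAAG and GGGCGG elements.

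The members that carry a composite site are shown first, because these sites are what the name IRF4-alone would lead one to look for. The highest-placed members with a match, with 20 bases on each side and the match in capitals, are given on the plus strand of mm9 wherever the stretch overlapped no annotated exon. ISRE core matches (GAAA and GAAA separated by any 2 bases, either strand) are from the promoters of Soat2, a cholesterol-esterifying enzyme (chr15:101980788-101980837), Gm14446 (chr19:34673911-34673960) and Tgtp2, an interferon-inducible GTPase (chr11:48877755-48877804).
Soat2: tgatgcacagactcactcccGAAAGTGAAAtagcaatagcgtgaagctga
Gm14446: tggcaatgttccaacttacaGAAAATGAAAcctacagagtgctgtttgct
Tgtp2: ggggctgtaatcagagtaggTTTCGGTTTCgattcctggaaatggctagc
The Tgtp2 stretch holds an EICE match (GGAA and GAAA separated by any 2 bases) that shares bases with its ISRE core, as did 11 members in all. A second EICE match is from Irgm2, another interferon-inducible GTPase (chr11:58028389-58028438).
Irgm2: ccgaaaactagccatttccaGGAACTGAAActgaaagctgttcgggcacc
AICE matches were the rarest, with 9 in all members. The highest-placed was at Rpl13, a protein of the large ribosomal subunit (chr8:125625795-125625845), followed by Riok2, a kinase of ribosome assembly (chr17:17511116-17511166).
Rpl13: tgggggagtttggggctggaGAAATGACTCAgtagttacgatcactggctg
Riok2: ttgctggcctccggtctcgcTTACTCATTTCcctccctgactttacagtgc

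Most members held no composite site. Whole windows, reaching 100 bp to each side of the peak centre, are given for promoters of Cnot4, a ubiquitin ligase of the CCR4-NOT complex that shortens mRNA tails (chr6:35083989-35084189), Nfatc2, a calcium-regulated transcription factor of T cells (chr2:168416296-168416496), and Taf5, a subunit of the general factor TFIID (chr19:47141984-47142184). They were chosen after their values were seen, among the 12 highest-placed of the 939 members whose window overlapped no exon. Their centres lie 352, 531 and 154 bp upstream of the TSS, against a median of 51 bp upstream for all members. They are thus examples and not typical members. Capitals mark matches to the ISRE core, EICE, AICE, ETS (CCGGAAG), GC box (GGGCGG) and CCAAT box (AGCCAAT) on either strand.
Cnot4: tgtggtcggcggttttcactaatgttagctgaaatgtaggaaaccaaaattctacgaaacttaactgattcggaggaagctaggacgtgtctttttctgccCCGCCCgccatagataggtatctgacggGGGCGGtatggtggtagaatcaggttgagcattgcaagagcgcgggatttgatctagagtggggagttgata
Nfatc2: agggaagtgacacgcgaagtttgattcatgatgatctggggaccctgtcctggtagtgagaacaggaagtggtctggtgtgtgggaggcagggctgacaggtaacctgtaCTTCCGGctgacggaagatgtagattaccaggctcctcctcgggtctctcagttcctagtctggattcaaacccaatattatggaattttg
Taf5: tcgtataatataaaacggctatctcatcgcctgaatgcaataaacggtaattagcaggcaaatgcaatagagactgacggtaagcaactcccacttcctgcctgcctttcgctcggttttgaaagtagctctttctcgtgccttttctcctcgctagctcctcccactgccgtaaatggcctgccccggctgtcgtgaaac
The Cnot4 window holds 2 GC boxes, the Nfatc2 window 1 ETS match, and the Taf5 window none of the 6 elements.

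The members came from 15516 IRF4 peaks (49.9%) that overlapped neither JunB nor BATF. Of these IRF4-alone peaks, 3614 (23.3%) were at promoters, against 7.44% of the IRF4 peaks shared with JunB or BATF. An IRF4 peak was also called in Junb-deficient cells for 2641 of the 3614, or 73.1% (71.6 to 74.5%). Over all IRF4 peaks the share was 65%, over IRF4-alone distal peaks 48.5% (47.6 to 49.4%) and over JunB- or BATF-shared promoter peaks 86.1% (84.0 to 88.0%). In the other direction, 2651 of 4147 IRF4-alone promoter peaks of Junb-deficient cells (63.9%) had a Junb-sufficient peak, against 47.7% of distal ones.

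The share kept was lower at later places in the list. The deposited lists carry no height for a peak, and the order of rows, which HOMER usually sets by peak strength but which the headers do not name, was the only measure of rank. In the fourth decile of the Junb-sufficient list, 267 of 310 IRF4-alone promoter peaks were kept (86.1%) and 76.9% of IRF4-alone distal peaks. In the seventh decile the shares were 73.7% and 52.3%, and in the last decile 54.0% and 28.0%. The promoter share was the higher from the second to the last decile. In the first 3 deciles, with 4, 37 and 142 promoter peaks, the intervals of promoter and distal peaks overlapped. Both traits are part of the rule, so these shares are a description without a test.

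**Figure D1:**
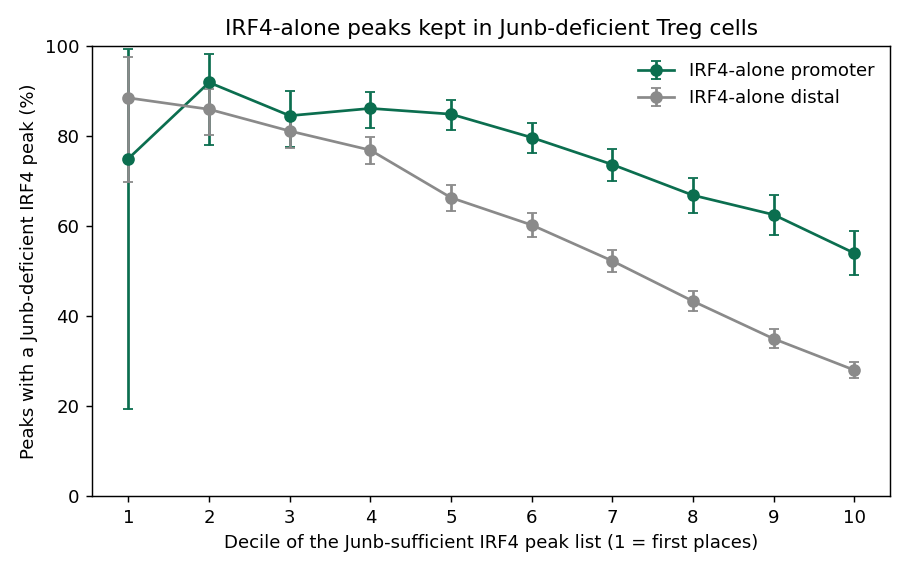
Share of IRF4-alone peaks with an IRF4 peak in Junb-deficient Treg cells (y axis, percent) by decile of the Junb-sufficient IRF4 list (x axis), for promoter (green) and distal (grey) peaks, with 95% exact intervals over peaks. In the last decile 54.0% of promoter peaks and 28.0% of distal peaks were kept.

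Members sat in the middle and lower part of the list. Their median place was at 60.3% of the list, with 833 (31.5%) in its first 50% and 3 in its first decile. The median was at 32.8% for kept promoter peaks shared with JunB or BATF, at 62.4% for kept IRF4-alone distal peaks and at 74.1% for IRF4-alone promoter peaks missing from the Junb-deficient list. In the Junb-deficient list the members' median place was at 59.0%, and 47.5% of members stood within 10 percentage points of their former place. The centres of the paired peaks lay a median of 44 bp apart, and 288 members (10.9%) overlapped their partner by less than 50% of their width.

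The highest-placed member was at Ptprc (chr1:140071518-140072130), which encodes CD45, the tyrosine phosphatase on all white blood cells. It stood at place 1338 of the Junb-sufficient list and 1470 of the Junb-deficient one. Rheb, the small GTPase that switches on mTORC1, had its peak at place 2140 and then 1144. Casp8, the initiator protease of receptor-driven cell death, was at place 2577 and then 1250. These peaks were centred 52 bp downstream of the TSS of Ptprc, 9 bp downstream of that of Rheb and 77 bp upstream of that of Casp8. Tex14, a protein of germ cell bridges, followed at 3508 and then 2874, and Soat2 at 3694 and then 2097. Irf2, an IRF family member that occupies interferon response elements, was ninth at place 4252 and then 2831 (chr8:47824875-47825487). The other 4 of the first 10 were 4933421E11Rik, Pde11a, A630091E08Rik and 1700041G16Rik. The lists differ in length, so places are compared as a percent of the list. On that scale 9 of these 10 stood earlier without Junb, the exception being Ptprc, as did 54.4% of all members and 61.3% of kept IRF4-alone distal peaks.

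Members crowded upstream of the TSS, as did the other promoter peaks. The centre lay within 100 bp of the nearest TSS in 1399 members (53.0%), against 46.0% of the missing IRF4-alone promoter peaks and 28.6% of the kept promoter peaks shared with JunB or BATF. It lay upstream of the TSS in 72.2% of members, 69.2% of missing and 68.8% of shared peaks. The medians were -51, -46 and -89 bp. A TSS was inside the peak in 2117 members (80.2%), in 70.6% of missing and in 57.7% of shared peaks. In 351 members (13.3%) genes on opposite strands both had a TSS within 1 kb, against 8.84% and 8.52%. By annotation, 55.9% of centres were outside protein-coding genes, 21.6% in an untranslated part of an exon, 18.7% in an intron and 2.54% in a coding exon.

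**Figure D2:**
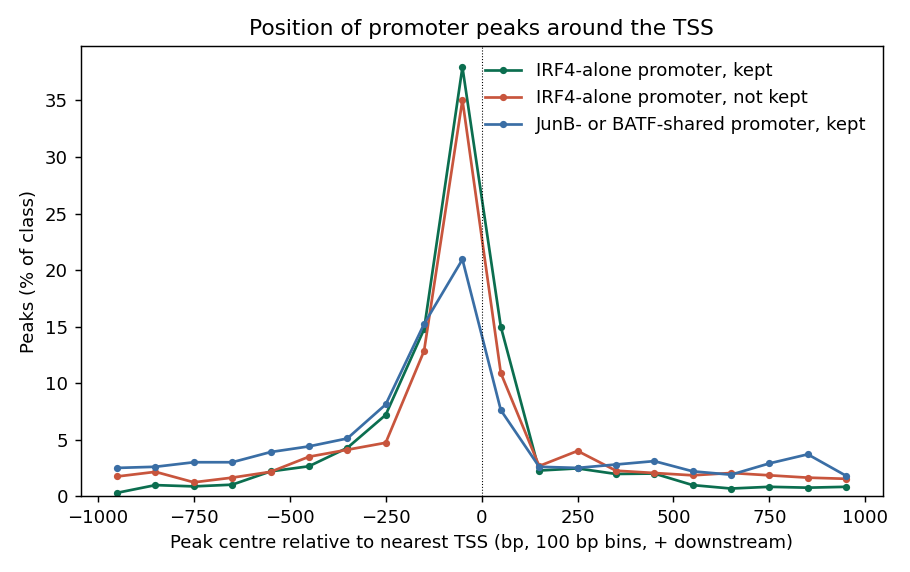
Distance of the peak centre from the nearest protein-coding TSS (x axis, bp, 100 bp bins, negative upstream) against the share of peaks in each class (y axis, percent). All 3 classes peak just upstream of the TSS, and within 100 bp on either side lay 53.0% of kept IRF4-alone, 46.0% of missing IRF4-alone and 28.6% of kept shared promoter peaks.

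The 1 kb limit cut through few peaks. Just inside it were Orai1, the pore of the store-operated calcium channel, at 983 bp and Gm10428 at 991 bp. Just outside was Gm572 at 1003 bp. The last 100 bp inside the limit held 30 kept IRF4-alone peaks, and the first 100 bp outside it held 34. The separation from JunB and BATF was also seldom close, since 14 members had the edge of a JunB peak within 100 bp and 3 that of a BATF peak. A JunB peak centre lay within 10 kb of 20.5% of members and of 27.9% of kept IRF4-alone distal peaks.

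Most members were CpG-rich, and few held an IRF composite site. Within 100 bp of the centre, an ISRE core, EICE or AICE was present in 194 members (7.35%) and in 6.06% of the missing IRF4-alone promoter peaks, against 15.0% of kept promoter peaks shared with JunB or BATF and 20.4% of kept IRF4-alone distal peaks. A window was called CpG-rich when the sequence within 300 bp of the centre had at least 50% G and C and a CpG observed/expected ratio of at least 0.6. This held for 1892 members (71.6%, 69.9 to 73.4%), against 46.9% of windows at all 45974 TSS positions of protein-coding transcripts. GC boxes were found in 47.8% of members and in 38.6% of the TSS windows. ETS sites were found in 21.2% of members and in 8.61% of the TSS windows. The ISRE core was found in 4.70% of members and 2.05% of TSS windows, and the EICE in 2.95% and 1.58%. AP-1 sites (TGACTCA) were found in 3.48% and 2.63%. In windows placed 5 kb from the members' centres, 0.530% were CpG-rich and 0.984% held an ETS site, while 3.56% held an AP-1 site and 2.57% an ISRE core.

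The first comparison asked which sequence features marked the peaks kept without Junb among IRF4-alone promoter peaks. Of 18 features (17 motifs and CpG-richness), 6 differed between the 2641 members and the 973 missing peaks (33.3% of those tested), with 4 more frequent and 2 less frequent in members. AP-1 sites stood in 3.48% of members (2.82 to 4.26%) and 8.43% of missing peaks (6.76 to 10.4%), giving an odds ratio of 0.392 (Fisher's exact test, two-sided, with peaks as the units and Benjamini-Hochberg adjustment over 54 tests, adjusted p = 1.68e-08). ETS sites stood in 21.2% of members and 14.0% of missing peaks, an odds ratio of 1.66 (Fisher's exact test, adjusted p = 1.33e-06). CpG-rich windows made up 71.6% and 59.2%, an odds ratio of 1.74 (Fisher's exact test, adjusted p = 6.53e-12). Sites of NF-kB, the factor that antigen receptor signals activate, were in 4.47% and 2.26% (odds ratio 2.02, Fisher's exact test, adjusted p = 0.00344). ZNF143 sites (ACTACAA) were in 5.83% and 3.80%, with an adjusted p of 0.0267, and sites of the chromatin architecture factor CTCF in 1.14% and 2.26%, with an adjusted p of 0.0290 (both Fisher's exact test). The CTCF call did not hold within 10 strata of place (odds ratio 0.546), and neither call held within 500 bp of a TSS. The ISRE core did not pass, with 4.70% against 3.49% and an odds ratio of 1.36 (0.924 to 2.00).

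Read the other way, 52.9% of the 174 IRF4-alone promoter peaks with an AP-1 site were kept (45.2 to 60.5%), and 74.1% of the 3440 without one. Of those with an ETS site 80.5% were kept, and of those without 71.3%. Among IRF4-alone distal peaks, 30.7% of the 2442 with an AP-1 site and 53.1% of the 9460 without one were kept. Members differed in place from the missing peaks. Within 10 strata of place the odds ratios were 0.363 for AP-1, 1.66 for ETS and 1.82 for CpG-rich windows, whereas in the first 50% of every list those of ETS and CpG-rich windows were 0.871 and 0.862 and did not pass.

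The second comparison set members against 998 promoter peaks that also were kept without Junb but overlapped JunB or BATF. Of the 18 features 9 differed (50%), 5 higher and 4 lower in members. The rule separates these classes by JunB and BATF peaks, so the sites those factors bind are given as a description. These are AP-1 and AICE, which the 4 lower features include. AP-1 sites were in 3.48% of members and 18.8% of shared peaks, and the AICE in 9 members (0.341%) and 31 shared peaks (3.11%). CpG-rich windows were in 71.6% and 42.5%, GC boxes in 47.8% and 29.1% and ETS sites in 21.2% and 10.2%. Sites of YY1 (ATGGCGG), a factor of many housekeeping promoters, were in 6.74% and 2.30% (odds ratio 3.06, Fisher's exact test, adjusted p = 5.30e-08). They were also in 6.68% of the missing IRF4-alone promoter peaks. The odds ratios of CpG-rich windows, ETS and GC box were 3.42, 2.37 and 2.23. Within 10 strata of place these fell to 1.88, 1.64 and 1.51, and that of YY1 to 2.01, and each still passed. NRF1 sites (GCATGCGC) were in 3.98% against 2.30% and forkhead sites (TGTTTAC) in 2.01% against 3.31%, but neither call held within 10 strata of place (odds ratios 1.04 and 0.595). The GC box call did not hold within 10 strata of GC content, where the odds ratio was 1.05. The ISRE core was less frequent in members, 4.70% against 9.22% (Fisher's exact test, adjusted p = 1.91e-06), but shared peaks stood far earlier in the list, and within 10 strata of place the odds ratio was 0.906 (Mantel-Haenszel test, adjusted p = 0.646).

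The third comparison set members against 5769 kept IRF4-alone distal peaks, and all 18 features differed (100%), 9 in each direction. The rule separates these classes by distance to a TSS. Differences in CpG-richness and promoter elements thus follow in part from the choice of members, and the comparison is a description. The 9 features more frequent in distal peaks were RUNX, ISRE core, AP-1, EICE, AICE, NF-kB, forkhead, TATA box and CTCF. Whether these sites mark enhancers was not tested. RUNX sites (TGTGGTT) were in 14.7% of distal peaks and 4.88% of members, ISRE cores in 14.5% and 4.70%, AP-1 sites in 13.0% and 3.48%, and EICEs in 4.96% and 2.95%. The odds ratio was 0.298 for RUNX and 0.290 for the ISRE core. Members had more ETS sites, with 21.2% against 2.08% and an odds ratio of 12.7 (10.4 to 15.6), and more GC boxes, with 47.8% against 7.11% and an odds ratio between 10.5 and 13.6. CREs (TGACGTCA), the sites of the ATF and CREB family, were in 3.22% of members and 0.607% of distal peaks. CpG-rich windows were in 71.6% and 2.70%, and base composition moved with these differences. Within 10 strata of GC content, 11 of 17 motifs passed. Within 10 strata of the CpG observed/expected ratio, 6 of 17 passed (both alternatives were chosen after seeing the data), with ETS at an odds ratio of 2.43 and GC box at 2.02 among them, while the ISRE core (0.903) and AP-1 (0.757) did not.

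**Figure D3:**
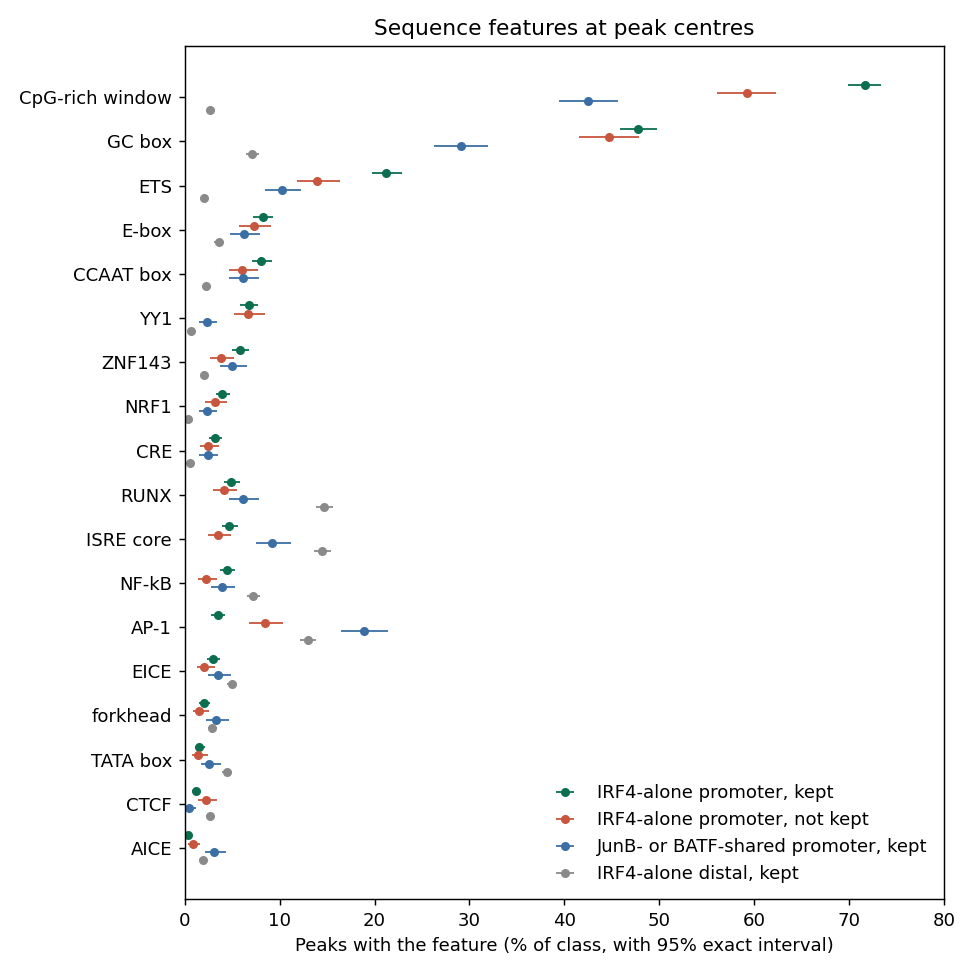
Share of peaks in each of 4 classes (x axis, percent, with 95% exact intervals) that hold each of 18 sequence features (y axis) around the centre. Kept IRF4-alone promoter peaks (green) are highest for CpG-rich windows, GC boxes and ETS sites, at 71.6%, 47.8% and 21.2%, and lowest for AP-1 sites, at 3.48%. Missing IRF4-alone promoter peaks are close to them for GC boxes, at 44.7%.

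Sequence features varied with place among the members themselves. In the second decile of the list 9 of 34 members (26.5%, 12.9 to 44.4%) held an ISRE core, in the third 12 of 120 (10.0%) and in the fourth 24 of 267 (8.99%). From the fifth decile on the share lay between 1.81% and 4.89%. CpG-rich windows went the other way, from 35.3% in the second and 47.5% in the third decile to 76.6% in the sixth. ETS sites were in 11.8% of members in the second decile and 23.8% in the seventh. Members with a composite site were CpG-rich in 72 of 194 cases (37.1%), and those without in 74.4%. The high places were thus richer in composite sites and the middle places in CpG island promoters, as a description of a single list.

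**Figure D4:**
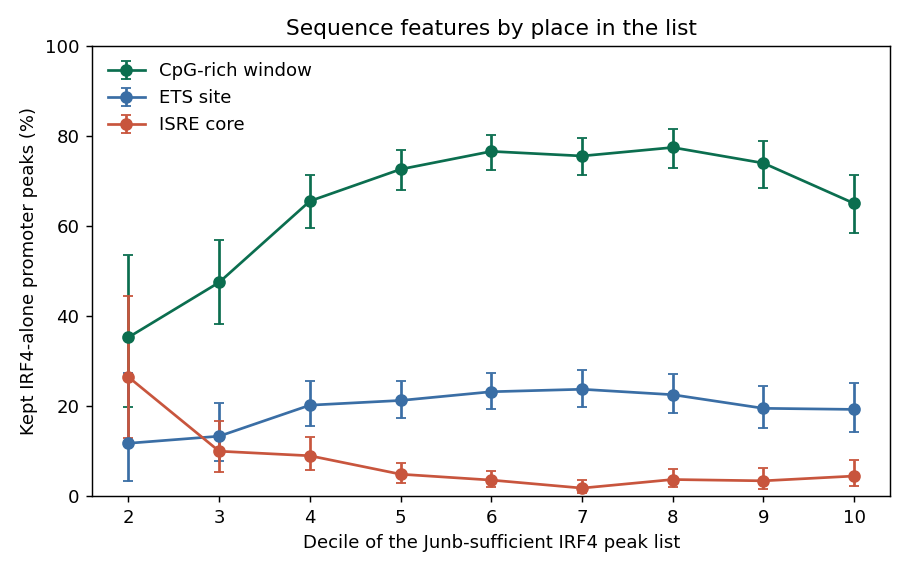
Share of kept IRF4-alone promoter peaks (y axis, percent, with 95% exact intervals) with a CpG-rich window, an ETS site or an ISRE core, by decile of the Junb-sufficient IRF4 list (x axis). The first decile, with 3 members, is left out, and the ISRE core goes from 26.5% in the second decile to 1.81% in the seventh.

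The motif holders at the top of the list were in part interferon-inducible genes. The 5 highest-placed members with an ISRE core were Soat2, 1700041G16Rik, Irgm1, Gm14446 and Tgtp2, at places 3694 to 4886. Irgm1 and Tgtp2 encode GTPases that act against intracellular microbes. Tgtp2 stood at place 4886 and, without Junb, at 1891. The 5 with an EICE were Irf2, Tgtp2, Irgm2, Trim12c and Ctps2, at places 4252 to 6765. The 5 highest-placed of the 9 members with an AICE were Rpl13, Riok2, Arl4a, Phkb and 1110004F10Rik, at places 5477 to 17811. The AICE in a member is a match of letters where neither JunB nor BATF was called.

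Of 22372 protein-coding genes, 2997 (13.4%) had a member within 1 kb of a TSS, and 5249 (23.5%) had any IRF4 peak there. In 373 members the peak served at least 2 genes, and 21 genes had 2 members. On the X chromosome 7.83% of genes had a member (6.19 to 9.75%), and 12.9% had any IRF4 promoter peak, so both shares were low there. Chromosomes 14 (10.3%) and 6 (11.3%) also had intervals below 13.4%, and 8 (16.5%) and 17 (16.3%) had intervals above it. Of 16 gene lists, most of those for core cell machinery stood above the 13.4% of all genes. Most of them also stood above the 23.5% of all genes for any IRF4 promoter peak, so a high share was not particular to members. Any such peak was found in 77.8% of aminoacyl-tRNA synthetase, 69.7% of mitochondrial ribosomal protein and 61.9% of RNA polymerase II and Mediator genes. It was found in 60.5% of DNA replication and 67.5% of interferon-stimulated genes. The lists were read as counts beside the shares of all genes. Whether members exceeded other IRF4 promoter peaks in a list was not tested.

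Mitochondrial ribosomal protein genes, whose products build the ribosome that makes respiratory chain subunits, had the highest share. Of 76 mitochondrial ribosomal protein genes 41 had a member (53.9%, 42.1 to 65.5%), and 3 had an IRF4 peak shared with JunB or BATF. Mrpl13 was at place 7693 and then 8389, Mrpl12 at 8285 and then 12763, and Mrps18b at 10343 and then 8912. Mrpl47 and Ndufb5, a subunit of respiratory complex I, are divergent genes that share 1 member at place 9288 (chr3:32635442-32636054). Of 91 respiratory chain genes 35 had a member (38.5%), among them Atp5g2 and Atp5g1, subunits of ATP synthase, and Ndufs8 of complex I. Atp5g2 went from place 8305 to 16251. None of the 35 peaks for the respiratory chain held an ISRE core or EICE. These sites were in 4.70% and 2.95% of all members, so their absence from 35 peaks says little. Of the 35 peaks 29 were CpG-rich (82.9%, 66.4 to 93.4%), against 71.6% of all members. An ETS site was in 4 of the 35 (11.4%, 3.20 to 26.7%), against 21.2% of all members.

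Genes of protein synthesis and turnover followed. Of 18 aminoacyl-tRNA synthetase genes, whose products load tRNAs, 8 had a member (44.4%, 21.5 to 69.2%), Vars, Mars and Wars among them. All 8 windows were CpG-rich and 4 held an ETS site, against 71.6% and 21.2% of all members. Of 80 cytosolic ribosomal protein genes 24 had a member (30.0%), and 18 others had a peak shared with JunB or BATF (22.5%). Rpl38 went from place 10024 to 18975, whereas Rps3 stood at 10582 and 10733. Of 60 translation factor genes 13 had a member (21.7%, 12.1 to 34.2%), such as Eif3d, Eif3f, Eif4g2 and Eef1g. Of 39 proteasome genes 13 had one (33.3%), among them Psmd1 and Psmb4.

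Genes of transcription, splicing and replication were similar. RNA polymerase II and Mediator genes had a member in 16 of 42 cases (38.1%), the spliceosome and hnRNP list in 16 of 51 (31.4%) and DNA replication in 14 of 38 (36.8%). Polr2a, the largest subunit of RNA polymerase II, was at place 10933 and, without Junb, at 5157. Srsf1, a splicing factor, was at 11259 and then 9962. Pcna, the clamp that holds DNA polymerase on its template, was at 9666 and then 6770. All 16 member peaks of the polymerase list and all 16 of the splicing list were CpG-rich, and none held an ISRE core. Other machinery lists did hold it, in 3 of 13 proteasome, 3 of 24 cytosolic ribosomal and 3 of 41 mitochondrial ribosomal peaks. Among all members the share was 4.70%, so its absence from 16 peaks says little, and 71.6% of all members were CpG-rich. Replication-dependent histone genes were near the share of all genes, with 10 of 67 (14.9%). Hist2h2ab, Hist2h2ac and Hist2h2be share 1 member at place 6313.

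Interferon-stimulated genes ranked second among the lists. Of 40 such genes 19 had a member (47.5%, 31.5 to 63.9%), 8 had a shared peak, of which 1 also had a member, and 13 had no IRF4 promoter peak. The 19 genes had 18 peaks, since the divergent partners Parp9 and Dtx3l share 1 (chr16:35938763-35939375). An ISRE core was in 8 of the 18 (44.4%, 21.5 to 69.2%), an EICE in 6, and 7 were CpG-rich. The 4 highest-placed were Sp100, a nuclear body protein, at 7453 and then 7696, Dtx3l and Parp9 at 8534 and then 7296, and Xaf1 at 8613 and then 12485. Cmpk2 moved from 26250 to 7900. Stat2, which carries the interferon signal to the nucleus, was at place 9467 and, without Junb, at 6704. Stat2, Cmpk2 and the genes in the next sentence were named after their values were seen. The ISRE cores at Stat2 (chr10:127707312-127707361), Rsad2 (chr12:27141408-27141457), Rtp4 (chr16:23609911-23609960), Bst2 (chr8:74061466-74061515) and Mx2 (chr16:97756731-97756780), genes whose products act against viruses or carry the signal, are those outside exons.
Stat2: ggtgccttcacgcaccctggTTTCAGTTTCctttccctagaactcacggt
Rsad2: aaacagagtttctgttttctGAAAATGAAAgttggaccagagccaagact
Rtp4: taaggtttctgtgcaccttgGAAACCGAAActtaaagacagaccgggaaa
Bst2: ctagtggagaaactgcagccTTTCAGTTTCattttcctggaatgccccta
Mx2: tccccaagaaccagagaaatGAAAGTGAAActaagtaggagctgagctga
In 4 of these 5 the match lies within 300 bp upstream of the TSS, and at Mx2 it lies at -935 bp.

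Genes of MHC class I antigen presentation, which serve the display of peptides to CD8+ T cells, had a member in 5 of 14 cases (35.7%, 12.8 to 64.9%). Psmb9, an immunoproteasome subunit, and Tap1, the peptide transporter, share 1 member between their divergent TSSs (chr17:34324400-34325012), at place 14159 and then 9816. Psmb10, another immunoproteasome subunit, was at 9843 and then 8663. Both of these peaks held an ISRE core. Calr, a chaperone, was at 15359 and then 10750. H2-K1, at place 16035, was the only gene with a member in this list that encodes an MHC class I molecule itself. It was named after its values were seen.

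Of 30 Treg effector and signature genes 1 had a member (3.33%, 0.0844 to 17.2%), an interval that holds the 13.4% of all genes. Any IRF4 promoter peak was found in 30.0% of them and in 23.5% of all genes. In the list 7 had a promoter peak shared with JunB or BATF and 21 had no IRF4 promoter peak. The member was at Entpd1, which encodes the ectoenzyme CD39, at place 24736 and then 22617. Promoters of regulators lay near the share of all genes. IRF, ETS and Ikaros factors had 4 of 28 (14.3%), namely Irf2, Irf3, Irf8 and Ikzf5. Irf8 stood at 55.2% of the list and, without Junb, at 21.7%, Ikzf5 at 68.8% and 44.7%, and Irf3 at 63.2% and 64.9%. NF-kB pathway genes had 4 of 22 (18.2%), Nfkbib, Nfkb2, Bcl10 and Ikbkg. AP-1 and ATF/CREB factors had 6 of 27 (22.2%, 8.62 to 42.3%), with Maff at 6436 and then 12283 and Atf4, the factor of the amino acid stress response, at 16963 and then 12526.

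**Figure D5:**
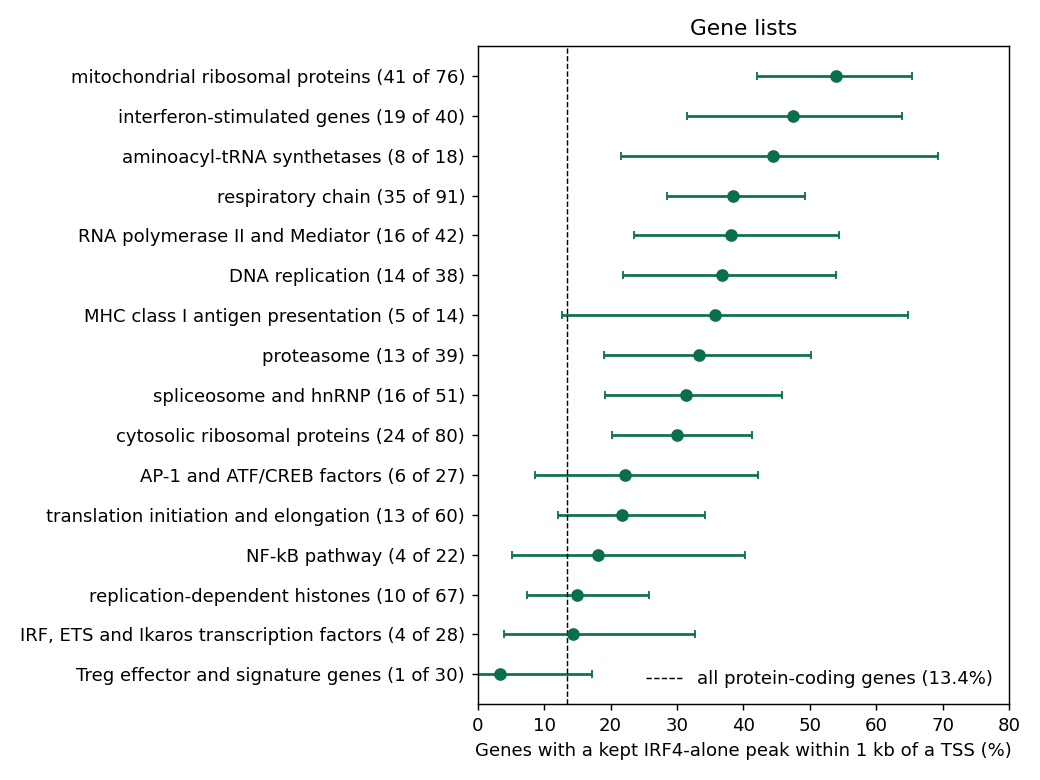
Share of each gene list with a kept IRF4-alone peak within 1 kb of a TSS (x axis, percent, with 95% exact intervals), against the 13.4% of all protein-coding genes (dashed line). Mitochondrial ribosomal proteins (53.9%) and interferon-stimulated genes (47.5%) are highest and Treg effector and signature genes (3.33%) lowest.

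Within the members the place changed by up to 74.1 percentage points. Moves down the list of more than 10 points were seen in 22.7% of members and moves up of more than 10 points in 29.8%. For kept IRF4-alone distal peaks the shares were 21.9% and 41.2%, and for kept shared promoter peaks 20.9% and 19.6%. The largest moves down were at Zbtb20, a zinc finger repressor, from 39.2% of the list to 98.7%, at Pafah1b3 from 40.8% to 96.8% and at Bod1 from 34.6% to 88.8%. The largest moves up were at Aqp4, a water channel, from 96.2% to 22.2%, at 5730437N04Rik from 97.4% to 30.1% and at Kcnj1, a potassium channel, from 98.7% to 37.9%. Members with an ISRE core stood at a median of 49.1% with Junb and 44.9% without, those with an NF-kB site at 52.0% and 47.9%, and those with an AP-1 site at 59.3% and 66.9%. Later medians without Junb were not particular to AP-1. They were also found for the TATA box (55.6% and 61.4%), CRE (56.8% and 59.7%), NRF1 (62.7% and 65.4%) and CTCF (63.8% and 66.7%). With 1 library per genotype these moves have no replicate check.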

How the data were processed

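Reads were aligned by the authors to mm9 with Bowtie2, keeping unique positions, and peaks were called in each library by itself with HOMER (version 4.8 in the submitters' processing notes; a methods form of the study names another release). Per the file headers, peaks passed a false discovery rate of 0.001 and a 4-fold excess over the surrounding 10 kb, with 1 tag counted per bp and no control library. The deposited score is 1 for every peak, so it was not used, and the place of a peak is its row in the list. Positions are counted from 1.

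Members were found by overlap with the other lists and with GENCODE vM1 TSSs on NCBIM37 (the same build as mm9), in Python 3.11.15 with pandas 2.3.3. A TSS was that of a protein-coding transcript. Motifs were exact consensus matches on both strands within 100 bp of the centre. Beside those spelled out with the results, these were TATAAAA for the core promoter box of that name, the E-box (CACGTG), and the longer consensus sequences of AICE (in 2 spacings), NF-kB and CTCF. Matches of EICE and ETS overlapped in 5 members and of GC box and ETS in 14. Features were compared over peaks by two-sided Fisher's exact tests (scipy 1.17.1), adjusted by Benjamini-Hochberg over 18 features and 3 comparisons, and by Mantel-Haenszel tests (statsmodels 0.14.6) as an alternative. Odds ratio intervals are Wald intervals. Peaks are not replicates of a condition. The functions were tested on simulated data.

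The members and the gene lists were chosen with earlier results of these data known. Genes were named by rule: the 10 highest members, up to 4 highest per gene list, the 3 largest moves each way, the 5 highest with each composite site, and 2 peaks on each side of the 1 kb limit, of which 1 outside it is not reported here. No sequence from chromosome 18 or from annotated exons was printed.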

Additional observations from a re-analysis of the deposited data

How the results depend on the processing

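The count of 2641 members stayed between 2391 and 2881 with other TSS limits, annotation, overlap or widened JunB and BATF peaks. It was 886 in the first 50% of every list and 27 with the BATF and IRF4 lists exchanged. The kept share of 73.1% became 74.9% within 500 bp of a TSS, 70.0% within 2 kb, 65.2% with 50% overlap, 64.7% in the first 50% of every list and 37.0% with the lists exchanged, against 48.8%, 48.5%, 45.2%, 56.5% and 23.2% for distal peaks. In the first 50% of every list, a partner in the lower part of the Junb-deficient list no longer counts, by construction. Against missing promoter peaks 2 features passed there, against 6. Within strata of GC content and of the CpG ratio, both chosen after seeing the data, 4 and 5 motifs passed against shared promoter peaks and 11 and 6 of 17 against distal peaks.

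Of the 33 features called, each under 7 alternatives (231 values), 202 kept direction and call, 26 kept direction without passing, and 3 reversed, all in the first 50% of every list: the odds ratios of ETS (0.871) and CpG-rich windows (0.862) against missing peaks and of CTCF (1.59) against distal peaks. Within strata of GC content, forkhead (1.16) and TATA box (1.03) against distal peaks reversed, as did NF-kB (1.11) within strata of the CpG ratio. None of the 6 passed after reversal. The 33 include AP-1 and AICE against shared peaks and the features against distal peaks, where the rule itself bears on the difference. The causes were not tested. One list per condition means that no value carries an error between cultures or mice, and without tag counts the size of a peak and the depth behind it are unknown.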
